A study of Mus musculus with 9 samples.

Results

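The 10 genes described here encode proteins that neutrophils store in granules or release as alarmins. They are S100a8, S100a9, Ltf, Camp, Ngp, Mmp8, Mmp9, Elane, Mpo and Retnlg, and they were taken by gene symbol from the expected count table and from the FPKM table (fragments divided by transcript length in kilobases and by library size). Each symbol had 1 row in each table, so all 10 members were found among 46072 rows, of which 26108 were above 0 in at least 1 library. RNA was sequenced from monocytes of the spleen of female C57BL/6 mice aged 8 to 10 weeks, in 3 groups of 3 libraries, without stimulation of the cells in culture. Con mice received water by oral gavage for 6 days. Van mice received vancomycin, an antibiotic that is poorly absorbed from the gut, by oral gavage at 2 mg per mouse per day for 6 days. VanLip mice received the same vancomycin course and then L654, a serine and glycine lipid of bacterial origin that acts through TLR2, by the retro-orbital route on days 7, 9 and 11. After gavage the mice rested without antibiotic, for 6 to 8 days by the labels, whereas the account of these libraries in the text of the study has 8 days. The labels name no injection for Con or Van. In the L654 experiments the study describes, mice not given L654 were injected with PBS, and whether the Con and Van mice of these libraries received it is not given in the sources used here. Monocytes were obtained by magnetic negative selection, a procedure that removes cells bearing Ly-6G, the surface marker of mature neutrophils, together with T, B, NK and progenitor cells and eosinophils. The purity that the study gives for these preparations falls short of complete, so some cells of other types can remain. In other experiments the spleens of mice of 1 cohort were combined, and whether that was done for the RNA libraries is not given in the sources used here.

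Neutrophils build their granules in sequence as they mature. Primary (azurophil) granules carry myeloperoxidase, encoded by Mpo, and neutrophil elastase, encoded by Elane. Specific and gelatinase granules form later and carry lactoferrin (Ltf), the antimicrobial peptide CRAMP (Camp), neutrophilic granule protein (Ngp), collagenase (Mmp8) and gelatinase B (Mmp9). S100A8 and S100A9 pair into calprotectin, an abundant cytosolic protein of neutrophils and monocytes that binds metal ions and, outside the cell, signals through TLR4 and RAGE. Retnlg encodes a resistin-like protein of myeloid cells, abundant in mature neutrophils. The transcripts of most granule proteins are made in the bone marrow while the granules are being filled, under factors of the C/EBP family, PU.1, RUNX1 and GFI1, and are low in the mature cell.

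Promoter sequence is shown first for the members whose proximal promoter held a match to the core of a C/EBP site, because C/EBP factors are the shared regulators of this gene group. RefSeq promoter windows of GRCm38.p6, each 300 bases long with 250 bases before the transcript start and 50 from it, were at hand for 9 members, and Mmp9 had no entry. The motif TTGCNNAA was searched on both strands and was found in 5 of 9 members, namely Ltf, Mmp8, Ngp, Retnlg and S100a9, and in 10.8% of all 32851 promoter windows. The stretches lay at chr9:111019187-111019254 for Ltf, chr9:7558380-7558447 for Mmp8, chr9:110419640-110419707 and chr9:110419767-110419834 for Ngp and chr16:48872358-48872399 for Retnlg, all on the + strand, and at chr3:90695920-90695971 on the - strand for S100a9. Capitals mark the match, which reads as the reverse complement in Ltf, the second Ngp stretch and Retnlg, where it lay on the opposite strand.
Ltf: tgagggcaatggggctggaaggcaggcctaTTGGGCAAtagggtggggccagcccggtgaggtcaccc
Mmp8: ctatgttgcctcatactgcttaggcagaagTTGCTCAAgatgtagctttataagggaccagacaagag
Ngp, first: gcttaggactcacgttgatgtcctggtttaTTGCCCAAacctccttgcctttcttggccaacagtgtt
Ngp, second: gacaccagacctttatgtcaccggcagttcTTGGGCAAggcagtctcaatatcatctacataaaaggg
Retnlg: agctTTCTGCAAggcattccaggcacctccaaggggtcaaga
S100a9: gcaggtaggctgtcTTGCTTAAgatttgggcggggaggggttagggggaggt
Counted from the RefSeq start of each gene, the matches began 75 bases before the start in Ltf, 19 in Mmp8, 138 and 11 in Ngp, 246 in Retnlg and 236 in S100a9. The GENCODE starts given further on can differ from these, and by GENCODE the second Ngp stretch lies inside the gene. Such a match is a run of letters and does not show that a factor is bound.

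GAGGAAG, the core of a PU.1 site, was found on either strand in 4 of 9 members, Elane, Mpo, Mmp8 and S100a8, against 13.6% of all windows. It is shown, in capitals, for Elane at chr10:79886197-79886263 and, as its reverse complement, for S100a8 at chr3:90668870-90668936, both on the + strand.
Elane: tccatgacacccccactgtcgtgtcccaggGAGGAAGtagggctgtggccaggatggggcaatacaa
S100a8: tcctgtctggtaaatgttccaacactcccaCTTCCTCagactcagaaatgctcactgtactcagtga
A looser C/EBP core, TTNCNNAA, which contains the first motif, was held by 6 of 9 members and by 40.7% of all windows. Of the other 6 motifs searched on both strands, TATAAA was held by 3 of 9 members (13.6% of all windows), AGATAA by 2 (11.2%) and TGTGGT by 2 (16.8%). TGANTCA was held by 0 of 9 (7.8% of all windows), the classical kappa B decamer by 0 (0.2%) and a degenerate kappa B form by 3 (50.8%). The 9 searches were not adjusted for their number and carry no test.

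All 10 members are protein coding, and 4 of them lie on chromosome 9. In GRCm38, by the GENCODE annotation, these are Mmp8 (ENSMUSG00000005800, 7558456 to 7568485, 10 exons in its longest transcript), Camp (ENSMUSG00000038357, 109847379 to 109849617, 4 exons), Ngp (ENSMUSG00000032484, 110419747 to 110423012, 4 exons) and Ltf (ENSMUSG00000032496, 111019271 to 111042767, 17 exons). S100a8 (ENSMUSG00000056054, 90668978 to 90670035, 2 exons) and S100a9 (ENSMUSG00000056071, 90692632 to 90695721, 3 exons) neighbour each other on chromosome 3 on opposite strands. Mmp9 (ENSMUSG00000017737) lies on chromosome 2 at 164940780 to 164955850, Elane (ENSMUSG00000020125) on chromosome 10 at 79886247 to 79888215 and Retnlg (ENSMUSG00000022651) on chromosome 16 at 48872621 to 48874496. Mpo (ENSMUSG00000009350) lies on chromosome 11 at 87793581 to 87804413 and overlaps Gm11505 on the opposite strand, and the strand setting of the quantification is not given in the sources used here, so its reads may include some of that gene.

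The depth of the libraries has to be read beside every value. Total expected counts ran from 43070361 to 61383806 in Con and Van but from 170503470 to 184720704 in VanLip. Low counts clustered at 1.33 in the former libraries and at 2.0 in the latter, and on that basis a single fragment added 2.6667 or 4.0 counts. This gives 16151385 to 23018927 fragments for a Con or Van library and 42625868 to 46180176 for a VanLip library. The labels name a single read length of 100 bases, and a low count of 2.0 would match reads of 150 bases, so that a longer read in VanLip is inferred from the counts and not stated. Depth and the size of 1 fragment coincide with the VanLip group, and their parts in any VanLip contrast cannot be told apart. The cells carried the monocyte markers (Ly6c2, Csf1r, Ccr2 and 9 others), with a summed FPKM of 10560 to 13480 over all libraries, of which Lyz2, a lysozyme that neutrophils also make, gave 6427.69 to 9154.0. Of 10 neutrophil markers, Ly6g was listed at 0 in all 9 libraries, where a count of 0 allows up to 3 fragments. Cxcr2, a chemokine receptor of mature neutrophils, was at 0.19 to 0.59 FPKM, and Cxcr1, Stfa2l1 and Mrgpra2b were at 0 in 7, 8 and 8 of 9 libraries. The neutrophil markers that were well above 0 were Csf3r, Trem1, Cd177, Padi4 and Asprv1, of which Csf3r, Trem1 and Cd177 are also made by monocytes.

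Levels per unit of transcript length separated Mmp8 from the rest. Mean FPKM over the 9 libraries was 19.37 for Mmp8, 2.44 for S100a8, 2.16 for S100a9, 0.62 for Elane, 0.59 for Ngp, 0.54 for Retnlg, 0.31 for Mpo, 0.15 for Ltf, 0.15 for Mmp9 and 0.14 for Camp. Mmp8 stood at a median percentile of 82.9 among the detected genes of a library and Mmp9 at 20.5. The lowest Mmp8 value, 10.53 FPKM, was above the highest value of any other member, 5.87 FPKM for S100a9. Below Mmp8 the ranges of neighbours in the order overlapped, S100a8 at 1.22 to 4.86 FPKM with S100a9 at 0.49 to 5.87, and S100a9 with Elane at 0.20 to 1.05, so that this order holds for the means and not for every library. The fragments behind these values numbered 492.3 to 4394.0 per library for Mmp8 and 63.3 or fewer for each other member.

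**Figure D1:**
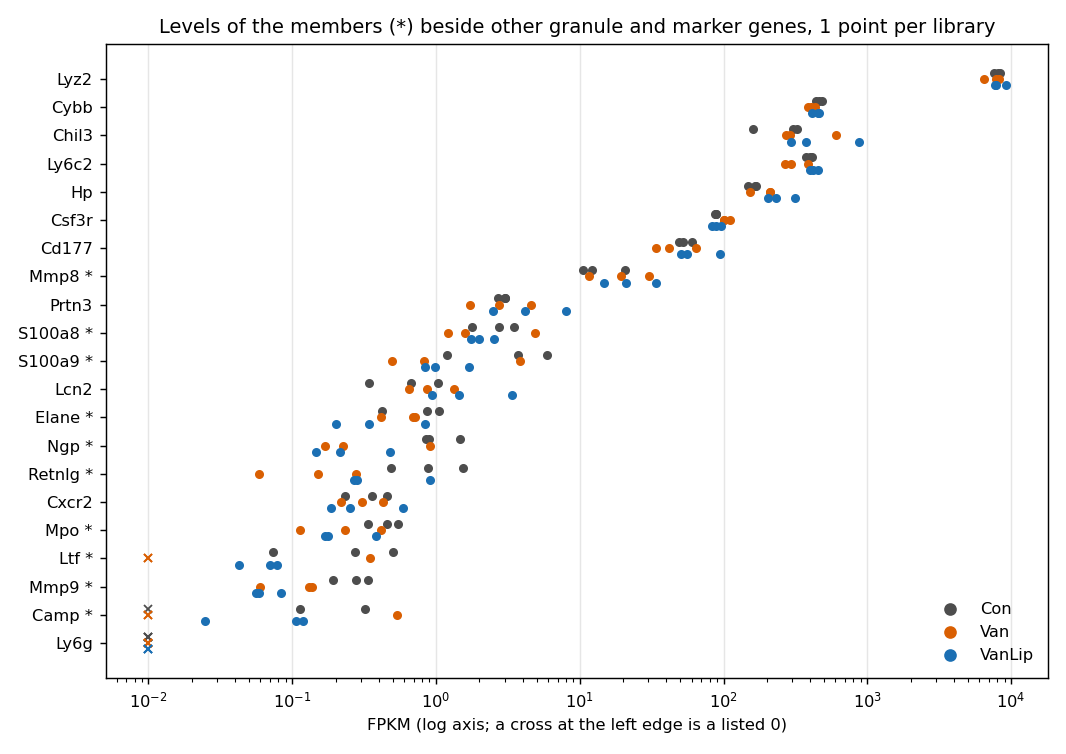
FPKM of the 10 members in 9 libraries on a log axis, ordered by mean, with colour for the group and a cross for a value listed at 0. Mmp8 lies between 10.53 and 33.79 FPKM, clear of all others, and Ltf and Camp hold the values at 0, in 2 and 3 libraries.

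Summed over all 10 members, FPKM was 22.52, 26.65 and 24.56 in Con, 14.01, 31.47 and 34.37 in Van and 37.49, 26.45 and 20.71 in VanLip. Mmp8 supplied 42.9% to 76.8% of that sum in Con, 61.8% to 88.8% in Van and 71.6% to 90.1% in VanLip. Without Mmp8 the sums were 10.46, 6.19 and 14.03 in Con, 2.52, 12.01 and 3.84 in Van and 3.69, 5.30 and 5.87 in VanLip. The 9 weaker members together were thus below every Con library in each VanLip library and in Van 1 and Van 3, whereas Van 2 lay within the Con range.

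Within a group, the members did not follow one another as a single block. By FPKM, replicate 2 was the highest Van library for 9 of 10 members, the exception being Mmp8, which was highest in replicate 3. In Con, replicate 3 was the highest for 6 members, S100a8, S100a9, Ltf, Ngp, Mmp9 and Elane, replicate 1 for Camp and Retnlg, and replicate 2 for Mmp8 and Mpo. In VanLip the highest library was replicate 3 for 5 members (S100a9, Ltf, Ngp, Mmp9 and Retnlg), replicate 2 for S100a8, Elane and Mpo, and replicate 1 for Camp and Mmp8. By normalized count the order was different for Mmp9, which was higher in Van 3 (39.69) than in Van 2 (36.09) and highest among the Con libraries in replicate 2 (84.06), and for Mpo, which was highest in replicate 3 of Con (109.5). The summed FPKM of the neutrophil markers was 233.7 to 252.6 in the Van libraries and was lowest in Van 2, at 233.7. Single markers did not share that order. Csf3r, at 99.96, 109.98 and 100.66 FPKM in Van 1, Van 2 and Van 3, and Cxcr2, at 0.22, 0.43 and 0.31, were highest in Van 2, as were the 9 members other than Mmp8. Trem1, at 107.74, 67.49 and 57.77, and Asprv1 were highest in Van 1, and Cd177 and Padi4 in Van 3. The part of the marker level in the members' values was not tested.

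S100a8 and S100a9 were both present in every library and both spread more widely in Van than in VanLip. S100a8 was at 2.74, 1.77 and 3.47 FPKM in Con, 1.22, 4.86 and 1.59 in Van and 1.76, 2.54 and 2.00 in VanLip. S100a9 was at 3.74, 1.20 and 5.87 FPKM in Con, 0.49, 3.82 and 0.82 in Van and 0.83, 0.99 and 1.70 in VanLip. For both genes the groups overlapped in each contrast, with Van 2 high and Con 2 low in its group. In the DESeq2 Wald test S100a8 differed by a log2 value of -0.08 (SE 0.48, adjusted p = 0.9819) in Van against Con, with a 95% interval of -1.02 to 0.87, and by -0.36 (SE 0.48, adjusted p = 0.7667) in VanLip against Con. For S100a9 the value was -1.10 (SE 0.69, adjusted p = 0.4955) in Van against Con and -1.63 (SE 0.69, adjusted p = 0.1444) in VanLip against Con, so neither passed the threshold of an adjusted p of 0.05.

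In VanLip against Van, S100a8 was at -0.28 (SE 0.48) and S100a9 at -0.53 (SE 0.69) on the log2 scale, with intervals of -1.22 to 0.65 and -1.89 to 0.82. Without Van 2 the Van against Con value of S100a9 was -2.45 with an adjusted p of 0.008817 and its VanLip against Con value was -1.63 with an adjusted p of 0.04858. Without Con 3 the values of S100a9 were nearer to 0, at -0.57 in Van against Con (adjusted p = 0.8792) and -1.10 in VanLip against Con (adjusted p = 0.568). Without Van 2 S100a8 was at -0.91 in Van against Con with an adjusted p of 0.2803. In these bulk samples, fewer cells of a type and less RNA per cell cannot be told apart, here and for every member below.

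**Figure D2:**
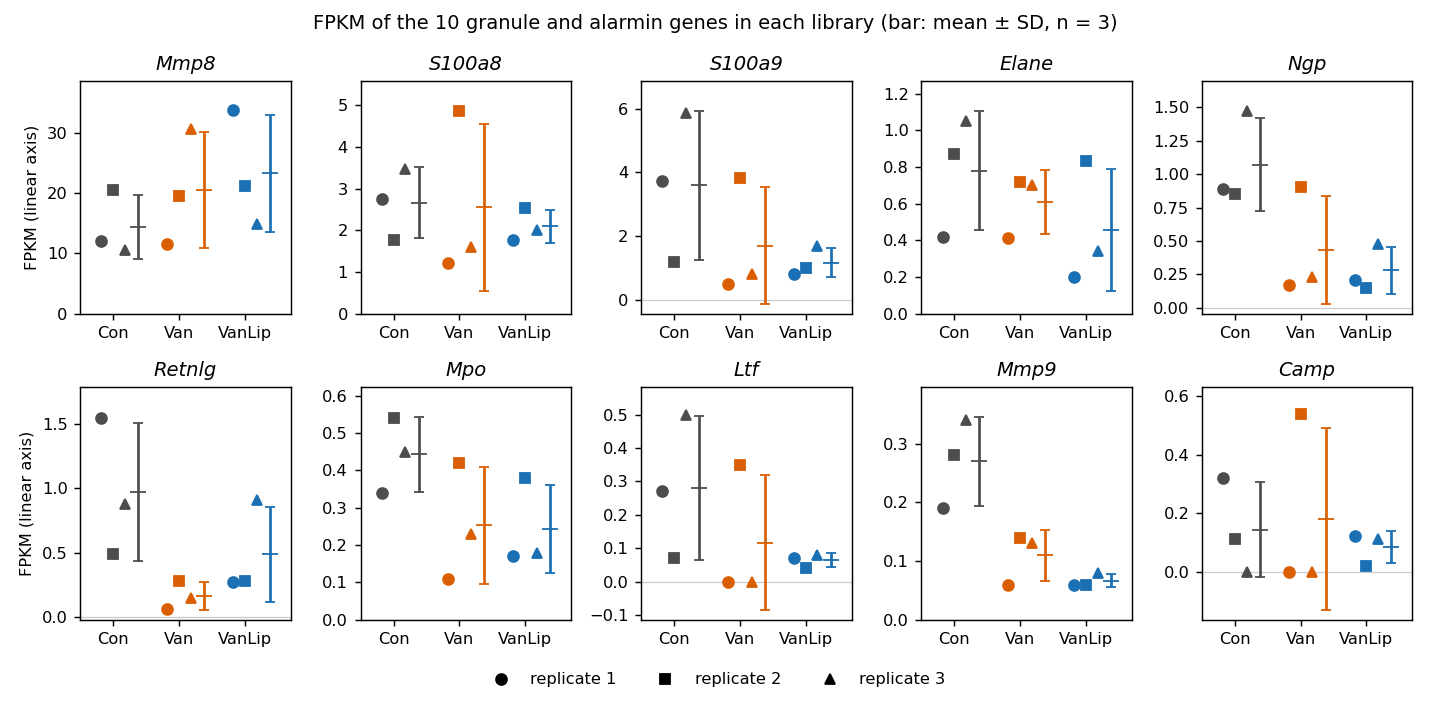
FPKM of each member in each library on linear axes that include 0, with points for the 3 libraries of Con, Van and VanLip and the mean and SD of each group beside them. Van 2 is the upper Van point in every panel except that of Mmp8, and the groups are apart for Mmp9 (Con above both others), Retnlg (Con above Van) and Ngp (Con above VanLip).

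Elane and Mpo were low in all groups and no contrast passed the test. Elane was at 0.42, 0.87 and 1.05 FPKM in Con, 0.41, 0.72 and 0.70 in Van and 0.20, 0.83 and 0.34 in VanLip. Mpo was at 0.34, 0.54 and 0.45 FPKM in Con, 0.11, 0.42 and 0.23 in Van and 0.17, 0.38 and 0.18 in VanLip. The groups overlapped in all 3 contrasts for both genes. Log2 differences in Van against Con were -0.37 (SE 0.58, adjusted p = 0.8896) for Elane and -0.72 (SE 0.60, adjusted p = 0.6701) for Mpo. In VanLip against Con they were -0.78 (SE 0.57, adjusted p = 0.5016) and -0.44 (SE 0.58, adjusted p = 0.766), and in VanLip against Van -0.41 (SE 0.57) and 0.28 (SE 0.59). The intervals were wide, -1.51 to 0.77 for Elane and -1.89 to 0.45 for Mpo in Van against Con. A library held 9.1 to 39.2 fragments of Elane and 5.5 to 51.7 of Mpo.

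The other primary granule genes in these cells had no called difference. The list held 7 genes, Prtn3, Ctsg, Ms4a3, Prss57, Ctsc, Gusb and Cd63, of which 6 had an adjusted p, and 0 of 6 were called in each of the 3 contrasts. Of all genes tested 4.34%, 6.67% and 9.86% were called in Van against Con, VanLip against Con and VanLip against Van, so nothing particular to the list is read from that count. Their median log2 differences were 0.03, 0.16 and 0.19 in Van against Con, VanLip against Con and VanLip against Van, beside -0.01, 0.01 and 0.01 over all genes. Proteinase 3, encoded by Prtn3, was at 2.90 ± 0.192 FPKM in Con, 3.03 ± 1.46 in Van and 4.91 ± 2.86 in VanLip (mean ± SD, n = 3 each), above Elane and Mpo in the mean of each group.

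Mmp9 and Ngp were lower in VanLip than in Con, and these were the 2 called differences among these 5 genes. Ngp was at 0.89, 0.85 and 1.47 FPKM in Con, 0.17, 0.90 and 0.23 in Van and 0.21, 0.15 and 0.48 in VanLip. Every VanLip library lay below every Con library, and Van 2 was within the Con range while Van 1 and Van 3 were in the VanLip range. Normalized counts averaged 124.6 in Con and 32.44 in VanLip, a log2 difference of -1.94 (SE 0.63, DESeq2 adjusted p = 0.03726). In Van against Con, Ngp was at -1.32 (SE 0.64, adjusted p = 0.2938), and in VanLip against Van at -0.62 (SE 0.64, adjusted p = 0.669). Without Van 2 the Van against Con value was -2.42 with an adjusted p of 0.006928. The VanLip against Con call was lost in 10 of 18 other settings, with Ngp lower in all 18, among them the libraries Con 1, Con 2, Con 3, VanLip 1 and VanLip 2 left out 1 at a time (log2 differences of -2.07 to -1.62, adjusted p of 0.08835 to 0.2279).

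Mmp9 was the only member whose Con libraries lay above all Van and all VanLip libraries. It was at 0.19, 0.28 and 0.34 FPKM in Con, 0.06, 0.14 and 0.13 in Van and 0.06, 0.06 and 0.08 in VanLip. Normalized counts averaged 59.24, 31.38 and 19.44 in the 3 groups. The log2 difference was -1.61 (SE 0.48, DESeq2 adjusted p = 0.01885) in VanLip against Con, -0.93 (SE 0.50, adjusted p = 0.3751) in Van against Con and -0.68 (SE 0.49, adjusted p = 0.4738) in VanLip against Van. These rest on 10.0, 23.8 and 10.4 fragments in Con, 5.2 to 10.4 in Van and 9.0 to 14.5 in VanLip, and the separation appears only after scaling for depth. The call was lost in 9 of 18 other settings, with Mmp9 lower in all 18, among them Con 2, Con 3, VanLip 1 and VanLip 2 left out 1 at a time (log2 differences of -1.70 to -1.26, adjusted p of 0.06511 to 0.2382).

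Mmp8 was not lower in the treated groups. It was at 12.06, 20.46 and 10.53 FPKM in Con, 11.49, 19.45 and 30.53 in Van and 33.79, 21.15 and 14.83 in VanLip. Both means were above that of Con, but the highest Con library exceeded at least 1 library of each other group, and the groups overlapped throughout. Log2 differences were 0.50 (SE 0.50, adjusted p = 0.7668) in Van against Con, 0.68 (SE 0.50, adjusted p = 0.5124) in VanLip against Con and 0.18 (SE 0.50, adjusted p = 0.9103) in VanLip against Van, with a 95% interval of -0.49 to 1.48 for the first.

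Ltf and Camp were the members with values at 0. Ltf was at 0.27, 0.07 and 0.50 FPKM in Con, was listed at 0 in Van 1 and Van 3 and was at 0.35 in Van 2, and was at 0.07, 0.04 and 0.08 in VanLip. Camp was at 0.32 and 0.11 FPKM in Con 1 and Con 2, was listed at 0 in Con 3, Van 1 and Van 3, was at 0.54 in Van 2 and was at 0.12, 0.02 and 0.11 in VanLip. A count of 0 in these libraries allows up to 3 fragments, and the highest Camp value, in Van 2, was 9.1 fragments. Log2 differences had standard errors of 1.76 to 1.84, and neither gene passed the test (adjusted p of 0.569 to 0.9836, with no adjusted p for Camp in VanLip against Con). For Ltf, normalized counts of 20.01 to 122.5 in Con did not overlap with 10.52 to 17.55 in VanLip, while FPKM values did. Its VanLip against Con difference, -2.25 in the fit of all libraries, was called in the fit of only these groups (-2.24, adjusted p = 0.02056) and without Van 2 (-2.24, adjusted p = 0.0389). Without Van 2 the Van libraries of Ltf were all at 0, so that its fitted fold against Con, which then passed the test at an adjusted p of 0.0001926, depends on the fit and is given no size.

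Other genes of these granules covered a wide range of levels, and most did not pass the test. The list held 16 genes, of which 13 had an adjusted p. Of these 0, 1 and 1 were called in Van against Con, VanLip against Con and VanLip against Van, beside 4.34%, 6.67% and 9.86% of all genes tested. Haptoglobin, encoded by Hp, which binds free haemoglobin, rose in VanLip against Con by a log2 value of 0.63 (adjusted p = 0.002986), from 159.9 ± 11.5 FPKM (SD, n = 3) to 250.1 ± 55.9 (SD, n = 3). Ficolin B, encoded by Fcnb, a lectin of immature myeloid cells, rose in VanLip against Van by 1.37 (adjusted p = 0.01431), from 0.642 ± 0.332 FPKM (SD, n = 3) to 1.67 ± 0.451 (SD, n = 3), and its call was lost without Van 1 (1.00, adjusted p = 0.06787) or without VanLip 2 (1.15, adjusted p = 0.1281). Both calls were also lost with edgeR and limma. Lyz2, the lysozyme that monocytes share with neutrophils, was at 6427.69 to 9154.0 FPKM and Chil3 at 159.6 to 872.3 FPKM, neither with a called difference. Olfm4, a protein of a subset of specific granules, was listed at 0 in all 9 libraries.

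Retnlg had the largest difference of any member in Van against Con by the DESeq2 fit. It was at 1.55, 0.49 and 0.88 FPKM in Con, 0.06, 0.28 and 0.15 in Van and 0.27, 0.28 and 0.91 in VanLip. Every Van library lay below every Con library, while VanLip libraries reached from below the lowest Con value to above the middle one. The Van values rest on 1.0, 3.7 and 2.3 fragments, against 22.1, 8.0 and 10.2 in Con and 8.7, 8.8 and 31.1 in VanLip.

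Normalized counts of Retnlg averaged 56.41 in Con, 9.376 in Van and 27.88 in VanLip. The log2 difference was -2.60 (SE 0.77, 95% interval -4.11 to -1.10, DESeq2 adjusted p = 0.02244) in Van against Con. In VanLip against Van it was 1.59 (SE 0.76, adjusted p = 0.1966), where normalized counts of the groups did not overlap but FPKM values did, and in VanLip against Con it was -1.01 (SE 0.70, adjusted p = 0.4723). Retnlg was lower in Van than in Con in all 18 other settings, of which 7 kept the call, 6 lost it and 5 gave no adjusted p. Calls were lost without Con 1, Con 3 or Van 3 (log2 differences of -2.68 to -2.07, adjusted p of 0.08204 to 0.2315), and no adjusted p was given without Con 2, Van 1 or VanLip 3.

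**Figure D3:**
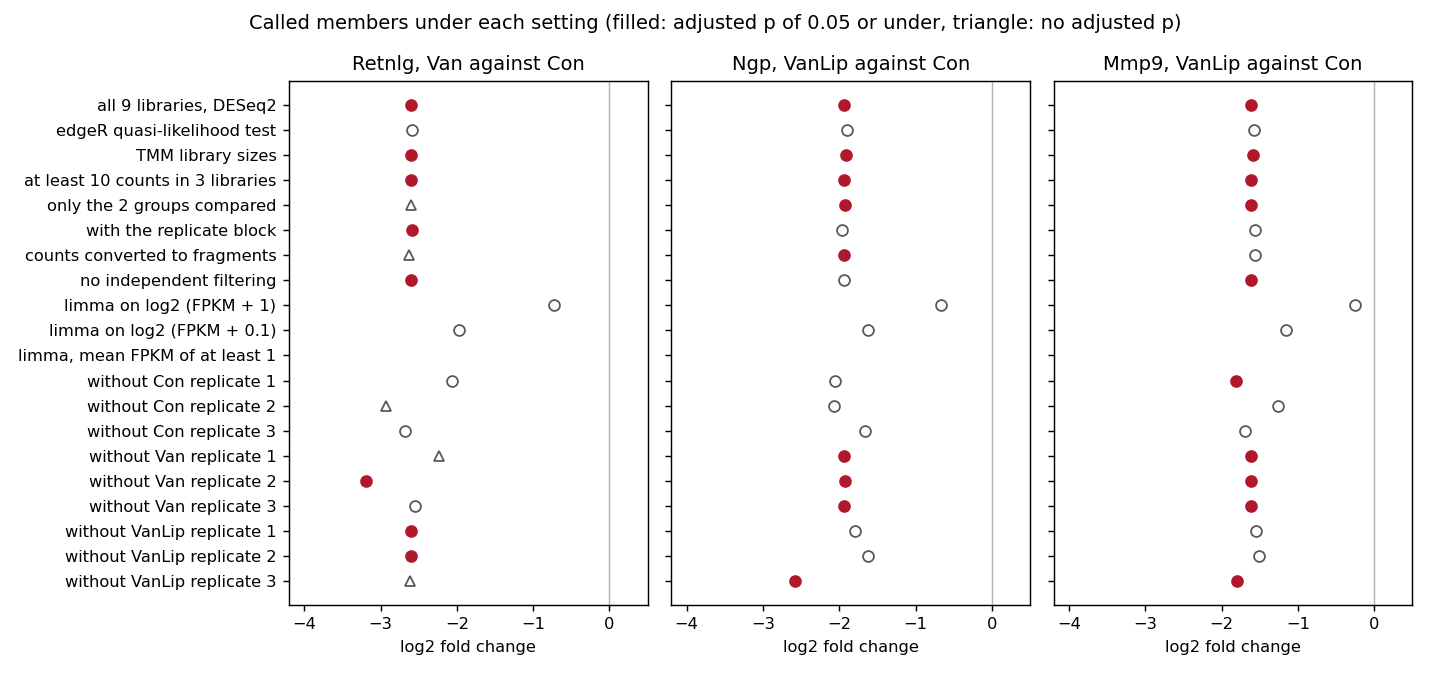
Log2 fold change of the 3 called members (Retnlg in Van against Con, Ngp and Mmp9 in VanLip against Con) under each setting, with 1 line per setting on the vertical axis. Filled symbols mark an adjusted p of 0.05 or under, open circles a higher one and triangles none given. All symbols lie below 0, filled in 7, 8 and 9 of 18 other settings, and the limma fit with a mean FPKM of at least 1 has none because these genes did not pass it.

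Over the 10 members, 1 was called in Van against Con, beside 4.34% of all genes tested, and it was lower, beside 2.06% called lower. In VanLip against Con 2 of 9 with an adjusted p were called, beside 6.67% of all genes, and both were lower, beside 3.69% called lower. In VanLip against Van 0 of 10 were called by DESeq2, beside 9.86% of all genes and 5.28% called lower, and edgeR and limma called 0 as well. Of the limma fits, that with a mean FPKM of at least 1 held only 3 members. At an unadjusted p under 0.05 the members numbered 2 in Van against Con (Retnlg and Ngp, 11.1% of all genes), 3 in VanLip against Con (Mmp9, Ngp and S100a9, 13%) and 1 in VanLip against Van (Retnlg, 15.5%). The likelihood-ratio test of any difference among the 3 groups called Mmp9 (adjusted p = 0.03126), Retnlg (adjusted p = 0.03452) and Ngp (adjusted p = 0.04862), 3 of 9 beside 13.5% of all genes, and S100a9 was the fourth at an unadjusted p under 0.05, beside 17.7%. edgeR's quasi-likelihood test called 0 members in each contrast, with 2, 3 and 1 at an unadjusted p under 0.05.

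Most members had a negative estimate in each contrast. Estimates were below 0 for 8 of 10 members in Van against Con, 9 of 10 in VanLip against Con and 7 of 10 in VanLip against Van, beside 51.2%, 48.4% and 48.1% of all genes. The median log2 difference was -0.83, -0.91 and -0.47, beside -0.01, 0.01 and 0.01 over all genes. These counts stood at 8, 9 and 7 with TMM library sizes and with edgeR too, but leaving out 1 library at a time gave 7 to 9, 8 to 9 and 2 to 8. The count of 2 in VanLip against Van came without Van 2, when S100a8, S100a9, Ltf, Camp and Ngp turned from lower to higher, so that the direction of that contrast rested on this library, and the replicate block gave 5 of 10 there. The contrasts share libraries and most single estimates did not pass the test, so the counts describe these libraries. Among the 6 members whose normalized count averaged 50 or more, Ngp in VanLip against Con was the 1 case in which groups did not overlap, beside 24.1%, 24.5% and 28.6% of genes at that level in Van against Con, VanLip against Con and VanLip against Van.

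**Figure D4:**
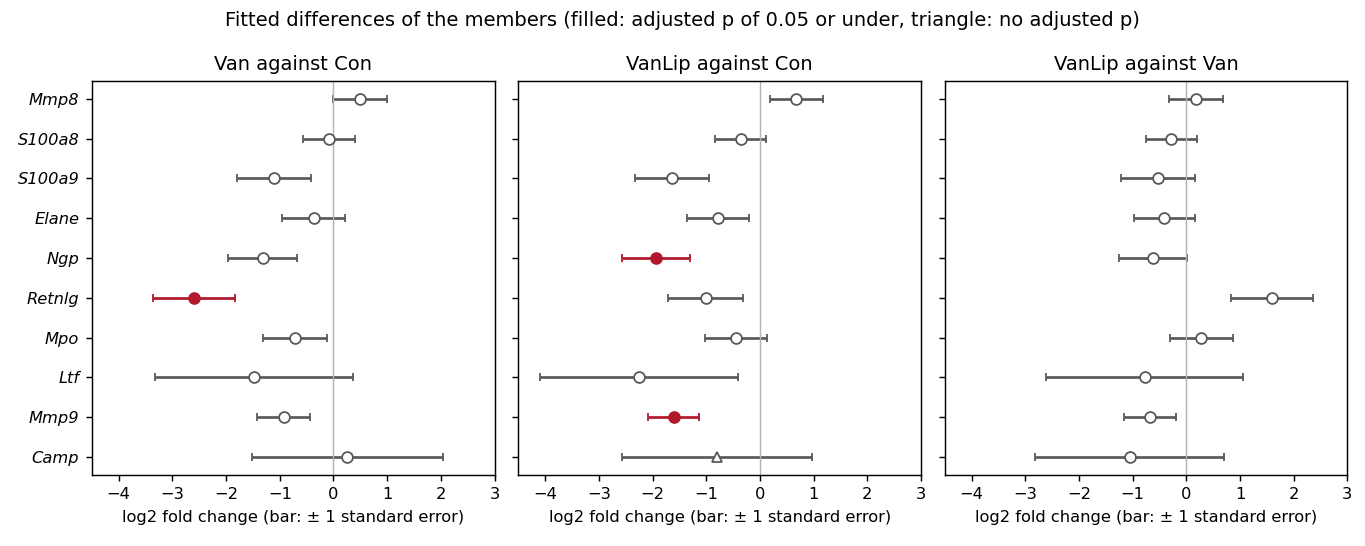
Log2 fold change of each member in Van against Con, VanLip against Con and VanLip against Van from the DESeq2 fit of all 9 libraries, with bars for 1 standard error to each side filled points where the adjusted p was at most 0.05 and a triangle where none was given. Filled points are Retnlg at -2.60 in the first contrast and Ngp at -1.94 and Mmp9 at -1.61 in the second, and the widest bars are those of Ltf and Camp.

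Marker genes of other cells were set beside these counts. The summed neutrophil markers were at 208.2 to 216.8 FPKM in Con, 233.7 to 252.6 in Van and 190.4 to 275.6 in VanLip, with 9 of 10 detected. Csf3r, the receptor of G-CSF, made up 82.7 to 110 FPKM of these sums and was higher in Van than in Con by a log2 value of 0.22 (adjusted p = 0.04748). In the same contrast Trem1 was at 0.61, Cd177 at -0.22, Padi4 at -0.56, Asprv1 at -0.36 and Cxcr2 at -0.17 (adjusted p of 0.3053 to 0.9494), so that the markers did not share a direction. Basophil and mast cell markers were at 0.185 to 0.8457 FPKM in Con, 0 to 0.1154 in Van and 0.0305 to 0.3585 in VanLip, and T cell markers at 2.562 to 3.293, 1.667 to 2.765 and 1.375 to 2.845. Erythroid markers were lower in Con (16.81 to 29.35 FPKM) than in Van (54.88 to 118.7) and VanLip (43.93 to 175.4). Among the monocyte markers, Ccr2, the chemokine receptor of classical monocytes, was at 173.37, 163.23 and 158.59 FPKM in Con, 70.36, 93.02 and 98.24 in Van and 256.3, 156.06 and 190.3 in VanLip. It fell in Van against Con by 0.83 on the log2 scale (adjusted p = 0.0004799) and rose in VanLip against Van by 1.04 (adjusted p = 7.377e-07). It was named after its values were seen, and none of the 11 other monocyte markers was called in Van against Con (adjusted p of 0.1104 to 0.9036). Csf1r, F13a1, Cd14, Nr4a1, Treml4 and Ace were above 0 there, at log2 values of 0.08 to 0.28, and Ly6c2, Cx3cr1, Fn1, Itgam and Lyz2 below it, at -0.34 to -0.11. In VanLip against Van, Ly6c2 and Cx3cr1 rose as well, by 0.39 (adjusted p = 0.02619) and 0.43 (adjusted p = 0.002637). Of the 5 dendritic cell markers, Clec9a, Siglech and Xcr1 fell in Van against Con by 1.12, 0.89 and 0.85 on the log2 scale (adjusted p = 1.547e-05, 0.04743 and 0.00897). Flt3 was at 0.25 (adjusted p = 0.608), with every Van library above every Con library, and Zbtb46 at -0.18 (adjusted p = 0.7866), and the sum of the list was 13.64 to 14.72 FPKM in Con, 13.43 to 13.73 in Van and 13.62 to 19.85 in VanLip. The part of any of these cells in the members' differences was not tested.

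The transcription factors of granule genes divided into abundant factors and factors near 0. Spi1, which encodes PU.1, was at 291.8 to 324.8 FPKM in the group means and Cebpb at 340.9 to 365.3, whereas Cebpe, the factor of specific granule genes, was at 0.591 to 1.03 and Gfi1 at 0.101 to 0.163. Of 9 factors, Cebpa was called in all 3 contrasts. It was at 46.94, 46.15 and 42.88 FPKM in Con, 51.88, 65.70 and 75.13 in Van and 36.19, 35.93 and 33.53 in VanLip. Every Van library was above, and every VanLip library below, every Con library. The log2 difference was 0.49 (adjusted p = 0.003254) in Van against Con, -0.38 (adjusted p = 0.02886) in VanLip against Con and -0.87 (adjusted p = 8.45e-11) in VanLip against Van, and the last was called in all 19 other settings. The first was lost with edgeR, with limma and without Con 3 (0.44, adjusted p = 0.0543). The second was lost in 11 of 19 settings, among them Con 1, Con 2, Van 2, VanLip 2 and VanLip 3 left out 1 at a time (-0.39 to -0.35, adjusted p of 0.05548 to 0.1663).

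In VanLip against Van, Runx1 fell by 0.33 on the log2 scale (adjusted p = 0.0004454) and Irf8, a factor of monocyte rather than neutrophil fate, rose by 0.42 (adjusted p = 0.0006036). Runx1 lost its call with limma at either pseudocount (adjusted p of 0.07271 to 0.09472) and Irf8 in all 3 limma fits (adjusted p of 0.05263 to 0.1266). The remaining 6 factors had no called difference in any contrast. The list's median was 0.09, 0.02 and -0.05 in the 3 contrasts.

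Among 12 receptors of the members' products and inhibitors of their enzymes, 11 had an adjusted p. In Van against Con 3 rose, namely Slpi, the secretory inhibitor of elastase, by 0.43 (adjusted p = 0.00588), and the formyl peptide receptor genes Fpr1 by 0.54 (adjusted p = 0.01225) and Fpr2, which encodes a receptor for CRAMP, by 0.52 (adjusted p = 0.03147). In VanLip against Con, Fpr1 rose by 0.64 (adjusted p = 0.0008739) and Fpr2 by 0.55 (adjusted p = 0.01248), and in VanLip against Van Slpi fell by 0.33 (adjusted p = 0.03222). Fpr1 was at 9.05 ± 0.517 FPKM in Con, 13.3 ± 1.92 in Van and 14.2 ± 2.28 in VanLip (mean ± SD, n = 3 each), with no Con library above 9.54 and no other library below 11.23. Of the receptors for calprotectin, Tlr4 was at 8.35, 7.60 and 7.22 FPKM in the group means and Ager, which encodes RAGE, at 1.26, 0.932 and 1.15, neither called. The Fpr1 call in VanLip against Con was lost in the 3 limma fits (0.57 to 0.61, adjusted p of 0.05178 to 0.1209). With edgeR and limma the calls of Slpi, Fpr1 and Fpr2 in Van against Con and that of Slpi in VanLip against Van were lost. Leaving out 1 library also ended calls in Van against Con, for Slpi without Con 1, Con 3, Van 2 or Van 3 (0.39 to 0.43, adjusted p of 0.05002 to 0.07773), for Fpr1 without Con 2, Con 3, Van 1 or Van 2 (0.45 to 0.53, adjusted p of 0.05515 to 0.1445) and for Fpr2 without Con 2, Con 3 or any Van library (0.42 to 0.57, adjusted p of 0.0683 to 0.172). It ended the Fpr2 call in VanLip against Con without Con 2, Con 3 or VanLip 1 (0.38 to 0.53, adjusted p of 0.07591 to 0.1119) and the Slpi call in VanLip against Van without Con 3, Van 2, Van 3, VanLip 1 or VanLip 2 (-0.36 to -0.23, adjusted p of 0.05151 to 0.1784). The Fpr2 call in VanLip against Con was also lost in a setting other than these omissions.

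Of 25 relatives in the S100, resistin-like and matrix metalloproteinase families, 15 had an adjusted p in Van against Con and 14 in the other contrasts. Only Mmp19, a metalloproteinase of macrophages and stromal cells, was called. It was at 3.13, 3.57 and 3.59 FPKM in Con, 3.91, 6.88 and 8.49 in Van and 3.48, 2.95 and 2.79 in VanLip, so that every Van library was above all others. It rose by 0.89 in Van against Con (adjusted p = 0.004128), a call lost with edgeR, limma and without Van 3 (0.63, adjusted p = 0.08088), and fell by 1.07 in VanLip against Van (adjusted p = 7.364e-05), a call lost with limma at either pseudocount (adjusted p of 0.1246 to 0.1265). The S100 genes that monocytes carry in quantity were much more abundant than S100a8 and S100a9, with S100a4 at 592.4, 629.2 and 738.1 FPKM and S100a6 at 189.5, 192.4 and 212.7 in the group means of Con, Van and VanLip. Over all 5 lists, 5 genes were called higher and 0 lower of 54 in Van against Con, 3 higher and 1 lower of 53 in VanLip against Con, and 2 higher and 4 lower of 53 in VanLip against Van. These totals count Mmp25, which was not called, both as a granule gene and as a relative. Over all genes tested the shares called were 4.34%, 6.67% and 9.86%, with 2.06%, 3.69% and 5.28% called lower, and nothing particular to the lists is read from these counts.

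Mmp8 followed other genes than the alarmins did. After centring log2 (FPKM + 1) within each group, Mmp8 correlated over the 9 libraries at r = 0.99 with F13a1 and 0.94 with Fn1, secreted proteins of classical monocytes, at 0.93 with Cd177, 0.83 with Hp and 0.81 with Chil3. The mean pattern of S100a8 and S100a9 correlated with the same genes at -0.21, -0.10, -0.26, 0.17 and -0.49. The correlations were closer for Prtn3, at 0.61 with Mmp8 and 0.39 with S100a8 and S100a9, and for Lcn2, at 0.51 and 0.09. Cd177, Hp and Chil3, with the wider gaps above, are on the granule gene lists too. These genes were chosen after their values were seen, the 9 libraries share their group centring, and the correlations are a description with no test. Van 3 and VanLip 1 were the highest of their groups for Mmp8, Cd177 and Chil3.

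**Figure D5:**
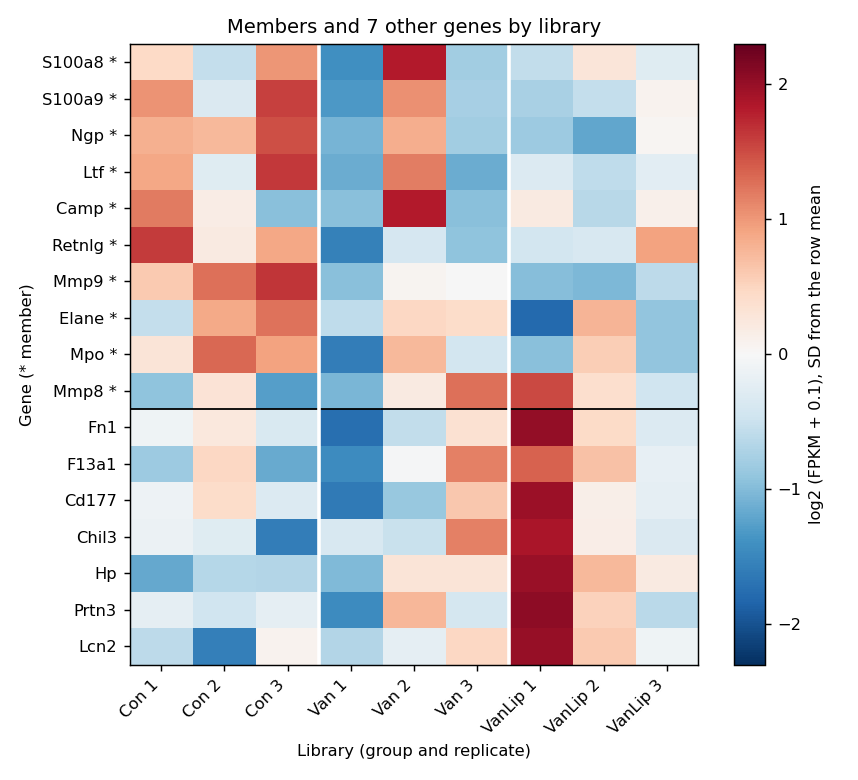
Heat map of the 10 members and 7 other genes (rows) in 9 libraries (columns), coloured by log2 (FPKM + 0.1) as SD from the mean of each row. Most members are high in Con and in Van 2, whereas Mmp8 and the lower genes (Fn1, F13a1, Cd177, Chil3, Hp, Prtn3 and Lcn2) are high in VanLip 1, where Mmp8 reached 33.79 FPKM and Chil3 872.3 FPKM.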

How the data were processed

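RNA of splenic monocytes was sequenced in 9 libraries, 3 in each group, and groups were taken from the sample labels. Per the labels and the study's methods, the authors aligned reads to GRCm38 with HISAT2 2.2.1, estimated FPKM per gene with StringTie 2.1.3 and deposited those FPKM values. The authors also deposited expected counts, obtained with tximport, which are fractional and carry no scaling for depth. The release of the annotation is not given in the sources used here, and coordinates were taken from GENCODE M21, which held 99.1% of the detected identifiers. Estimates of overlapping or similar genes can exchange reads.

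Expected counts were rounded and tested in R 4.3.3 with the DESeq2 1.42.0 Wald test, all 9 libraries in 1 fit with group as the only term, and the likelihood-ratio test for any difference. P-values are two-sided and were adjusted by the Benjamini-Hochberg method over all genes tested, with default independent filtering, and genes with an adjusted p no higher than 0.05 were called. Normalized counts are counts divided by DESeq2 size factors. With 3 libraries per group, an exact permutation test of a single gene could not pass that threshold and none was run. The study gives 3 mice per group, and p-values measure the spread between these libraries. Intervals and limits of detection cover the stated error only. The scripts were tested on simulated data.

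Alternatives were edgeR 4.0.16 (quasi-likelihood test), TMM library sizes, at least 10 counts in 3 libraries, a fit restricted to the contrast's own groups, fragments in place of counts, the replicate number as a block, no independent filtering, limma 3.58.1 on quantile-normalized log2 FPKM with a pseudocount of 1 or 0.1, the same with a minimum mean FPKM of 1, and the omission of each library in turn. The members, 5 gene lists of 69 entries (Mmp25 is both on the list of specific and gelatinase granule genes and on that of relatives), 11 marker lists and the motifs were chosen with earlier results of these data known. All members were named, and of each list the genes called in a contrast, up to 4 per list and contrast. Genes named outside that rule (such as Prtn3, Lyz2, Chil3, Spi1 and S100a4) give levels and were chosen after their values were seen. Genes most like the members were the 10 with a mean FPKM of at least 5 and the highest correlation.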

Additional observations from a re-analysis of the deposited data

How the results depend on the processing

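The numbers of members called, 1 in Van against Con, 2 in VanLip against Con, 0 in VanLip against Van and 3 for any difference, depended on the setting. With edgeR and with each of the 3 limma fits they were 0 throughout. The limma fit with a mean FPKM of at least 1 held only 3 members, without Retnlg, Ngp and Mmp9, so its 0 is no lost call for these. They were 0, 1 and 0 for Van against Con, VanLip against Con and any difference with counts converted to fragments, and 1 for VanLip against Con and 1 for any difference without independent filtering. Fits of only the groups compared called 0 in Van against Con and 4 in VanLip against Con (Mmp9, Ngp, Ltf and S100a9). In Van against Con the fragment fit and the fit of 2 groups gave Retnlg no adjusted p. Leaving out 1 library gave 0 to 4 in Van against Con, 0 to 4 in VanLip against Con, 0 to 1 in VanLip against Van and 0 to 4 for any difference, each highest without Van 2. TMM library sizes and the count filter left the numbers within 1.5 times of these. The causes were not tested, except that without Van 2 the Van libraries of Ltf and Camp are all at 0.

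Replicate numbers are shared between groups, but deviations of same-numbered libraries correlated at only -0.06 to 0.12, so the numbers do not pair the libraries. With the replicate block 1 member was called in Van against Con (Retnlg, adjusted p = 0.04995) and 0 in VanLip against Con, in VanLip against Van and for any difference. Under the block Ltf was at 1.50 in VanLip against Van, and Camp at -0.68, 0.67 and 1.35 in Van against Con, VanLip against Con and VanLip against Van.

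Of 549 values of the members under other settings, 21 changed sign, none of a called difference, 25 lost a call, 7 gained one and 41 kept their sign but had no adjusted p. Camp in Van against Con was at -0.16 with limma and a pseudocount of 0.1, and Mpo in VanLip against Van at -0.0 with a pseudocount of 1. Beside these and the 4 under the block, the sign changes came from leaving out 1 library. In Van against Con, S100a8 then ranged from -0.91 to 0.25 and Camp from -5.38 to 1.61, and in VanLip against Con Camp ranged from -1.38 to 0.55. In VanLip against Van the ranges were -0.61 to 0.55 for S100a8, -0.97 to 0.82 for S100a9, -1.36 to 5.90 for Ltf, -1.65 to 4.58 for Camp, -1.25 to 0.48 for Ngp, -0.20 to 0.60 for Mmp8 and -0.21 to 1.26 for Mpo. The ends at -5.38, 5.90 and 4.58 came without Van 2, when the Van libraries of Ltf and Camp were all at 0. They depend on the fit and are not read as sizes. Of 285 values of the named list genes, 84 lost a call and none changed sign. Every member except Mmp8 had 63.3 fragments or fewer in each library.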

Other observations

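The genes whose pattern was most like that of the members with a mean FPKM of at least 1 (S100a8, S100a9 and Mmp8) were named by Pearson correlation over the 9 libraries, after log2 (FPKM + 1) had been centred within each group, among 7799 genes with a mean FPKM of at least 5. They were Nf2 (r = 0.98), Rabggta (0.97), Kif1c (0.97), Eif2b4 (0.96), Tmem230 (0.96), Arf1 (0.94), Ighv1-26 (0.94), Snord49a (0.93), Nsf (0.93) and Ensa (0.93). None of these is on the granule gene lists used here. With Mmp8 alone, a choice made after the values were seen, the first 5 were Tm6sf1 (1.0), Capn2 (0.99), F13a1 (0.99), Cd300lg (0.98) and Rab44 (0.98). The correlations rest on 9 libraries that share group means and are given as a description.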
